A study of Mus musculus with 8 samples.

Results

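The genes described here encode the fibroblast growth factor (FGF), platelet-derived growth factor (PDGF) and neuregulin/epidermal growth factor (EGF) ligands, their receptor tyrosine kinases, the intracellular inhibitors that damp those receptors, and the hepatocyte growth factor pair Hgf and Met. 38 genes were listed by name, and every non-control array probe whose transcript accession belongs to one of them was kept, whatever its signal. This gave 76 probes of 37 genes among the 41174 probes of the array; no probe matched Nrg2. The data are whole hearts of C57BL/6 mouse embryos (C57BL/6J in the study's methods) at E18.5, late gestation, from dams kept on normal chow with no treatment: 4 wild-type (WT) hearts and 4 hearts labelled SIRT1 KO, described by the study as a whole-body germ-line deletion of Sirt1, a NAD-dependent protein deacetylase. Embryos came from crosses between heterozygous mice and were of both sexes. Each heart was measured on its own one-colour expression array, so that n = 4 embryos per genotype throughout, and the p-values given below measure the spread between these embryos. The labelled deletion is not limited to one cell type, and a value from the whole heart does not separate the cardiomyocytes from other cells.

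FGF, PDGF and neuregulin ligands are secreted or shed proteins that join a pair of receptor tyrosine kinases on the receiving cell, and the receptors then recruit adaptors and switch on the ERK kinase cascade. In the developing heart the epicardium and endocardium are sources of FGFs that act on the myocardium, endocardial neuregulin acts on ERBB2 and ERBB4 of cardiomyocytes during trabeculation, and PDGFs act on epicardium-derived fibroblasts and on mural cells. Sprouty and Spred proteins are induced by the same signal and hold the ERK cascade in check. The intracellular FGF homologous factors Fgf12 and Fgf13 share the FGF fold but are not secreted and bind voltage-gated sodium channels of the cardiomyocyte.

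On the 8 arrays 59.5 to 64.9% of probes were well above background and no spot was saturated. A probe's level is given as the log2 of its background-subtracted signal minus the array's 75th percentile, and a difference is the mean of the hearts labelled SIRT1 KO minus the WT mean on that scale. The WT arrays share one slide and scan day and the arrays labelled SIRT1 KO another, so genotype cannot be told apart from slide or scan day. Neither of the 2 Sirt1 probes was lower beyond the spread between hearts: A_52_P358612 was 0.54 higher (SE 0.11, limma adjusted p = 0.0323, a call that held in only 2 of the 8 fits without 1 heart) and A_51_P141152 differed by -0.11 (SE 0.11, adjusted p = 0.589). Where these probes lie relative to the deleted part of the gene is not given in the sources used here, so the label was not checked by them and every direction below is that of the labelled groups. All 8 cardiomyocyte markers (Myh6, Tnnt2, Actc1, Tnni3, Ryr2, Actn2, Myl3 and Nppa) were well above background in every heart. Liver markers, which a dissected fetal heart should lack, had a summed signal of 4.12 to 13.6 times the 75th percentile in WT and 5.02 to 60.7 times in the hearts labelled SIRT1 KO, highest in replicates 1 and 4 of the latter. Of the 6 lung markers Sftpb, Sftpa1 and Nkx2-1 did not clear the background in any heart, Cldn18 did in 5 of 8 hearts, Sftpc in 3 and Scgb1a1 in 2 labelled SIRT1 KO (its genotypes did not overlap), with a summed signal of 0.0445 to 0.131 in WT and 0.0693 to 0.197 in the other genotype.

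A few probes of growth factor genes differed between the genotypes, and most of the family did not pass the test. One probe each of the secreted ligand gene Fgf8 and of Spry2 was higher in the hearts labelled SIRT1 KO, one probe of the receptor gene Met was lower while other probes of these 3 genes did not follow, and the ligand gene Fgf2 rose above background only in the hearts labelled SIRT1 KO. 54 member probes of 32 genes were tested, having cleared the background in 4 or more of the 8 hearts, and 4 of them passed an adjusted p of 0.05, 3 higher and 1 lower, a share of 7.41%, against 4.88% of the 25615 probes tested over the whole array (1017 higher, 233 lower). Fgf2 is one of the 4 and entered the test only through the group in which it is high, so its call supports nothing, and among the 53 member probes measured in both genotypes 3 passed, a share of 5.66%. Where every one of the 8 arrays had to clear the background, 3 of 48 member probes passed (6.25%) against 1185 of 23404 probes (5.06%), so the members' share was close to that of all probes. In the background of all probes tested 3.97% of probes were called higher and 0.91% lower. The share called over the whole array also depended on the signal, being 8.78% among the dimmest of 3 equal groups of probes, 4.03% in the middle group and 1.83% among the brightest, and Fgf2, Fgf8 and the Spry2 probe lie in the dimmest group and Met in the middle one. Over the 54 probes the median difference was 0.01, equal to the 0.01 of all probes tested, with 28 higher and 26 lower and a range of -1.60 to 1.39, the upper end being Fgf2. The split was 17 higher and 37 lower with median scaling, 25 and 29 with quantile normalization, 27 and 27 with loess, 10 and 44 without scaling and 37 and 17 with the normexp background. 18 of the 54 had an unadjusted limma p under 0.05, a larger share than the 21.5% of all probes tested (5504 of 25615). Several of these 18 are probes of the same gene (Fgf12, Fgf9, Fgfr1 and Erbb2). On the brightest probe of each gene the count was 11 of 32. The genotypes did not overlap on 9 of the 54 probes, 8 higher and 1 lower, a share of 16.7% against 13.7% of all probes (8.63% higher, 5.11% lower). Fgf2 is among the 28 higher probes, the 18 and the 9, and adds no support to these counts either.

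Of the 22 member probes not tested, 17 did not clear the background in any heart. 5 genes had no tested probe: the ligands Fgf3, Fgf7 and Fgf10, the neuregulin receptor gene Erbb3 and the ligand gene Hgf. 16 genes had several tested probes, whose differences had the same sign for 11 genes and opposite signs for 5 (Fgf8, Fgfr1, Fgfr3, Spred1 and Egfr), and the median gap between the highest and the lowest difference of a gene was 0.17.

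**Figure D1:**
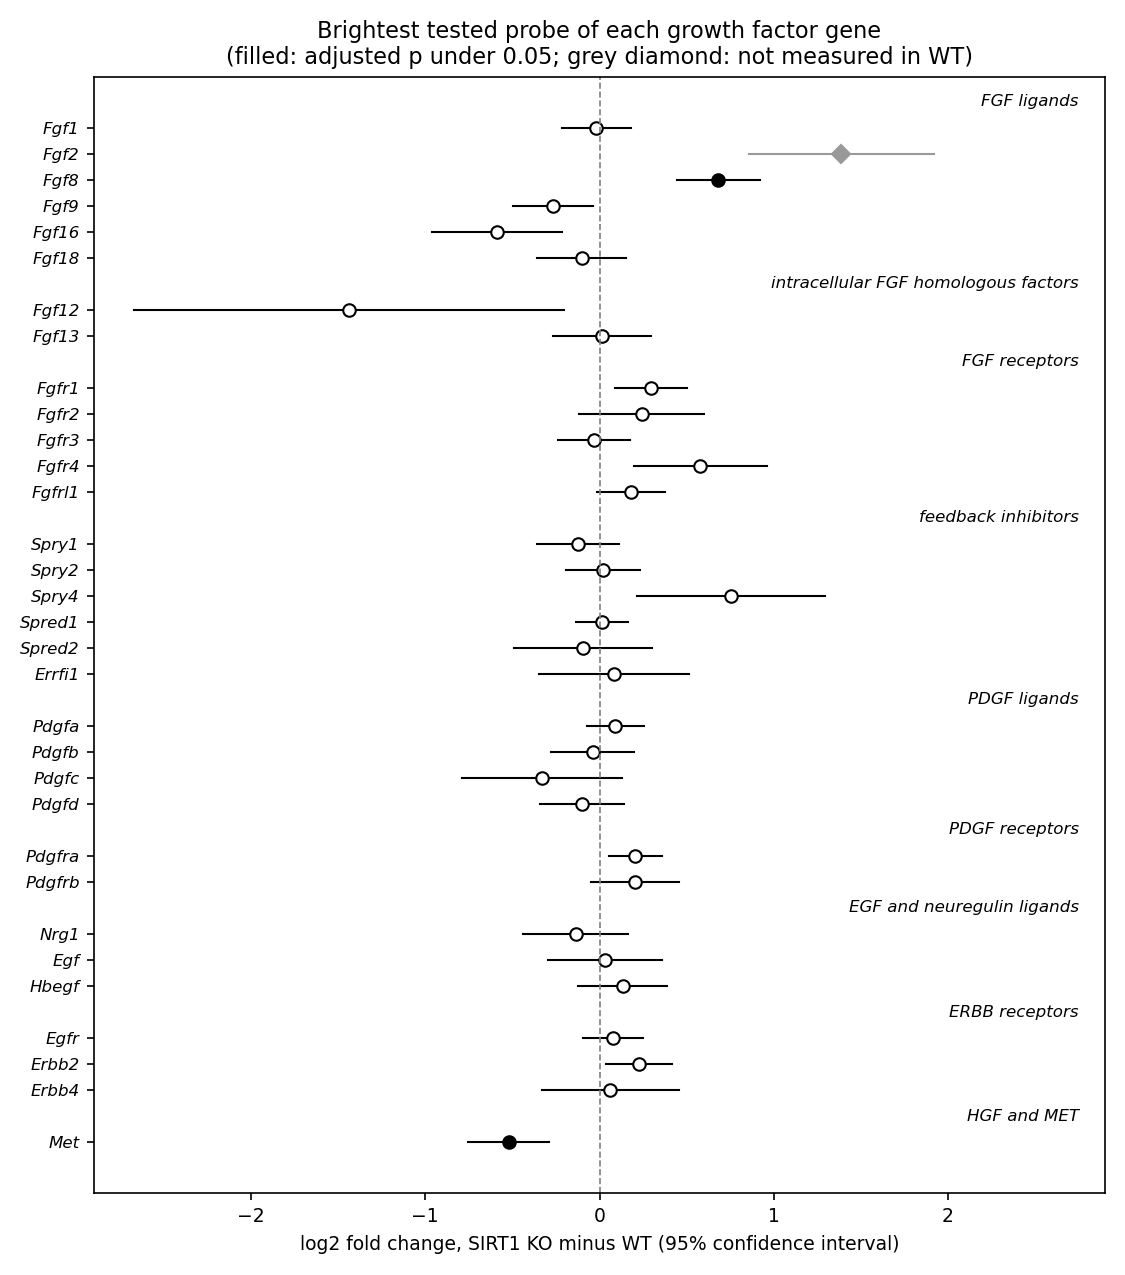
Log2 fold change (hearts labelled SIRT1 KO minus WT, x axis) of the brightest tested probe of each of the 32 genes, grouped by role, with the 95% confidence interval of the limma fit as bars (n = 4 per genotype). Fgf8 and Met (filled) passed an adjusted p of 0.05, Fgf2 (grey diamond) was not measured above background in WT so that its point is no measured fold, most other intervals cross 0, and the interval of Fgf12 is the widest.

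Among the secreted FGF ligands, Fgf2, or basic FGF, a mitogen of fibroblasts and endothelial cells, was measured in only one of the genotypes. On probe A_51_P399845, printed in 10 spots per array, the WT hearts read -6.55, -6.03, -6.17 and -5.77 in replicates 1 to 4, and the hearts labelled SIRT1 KO read -4.50, -4.31, -4.82 and -5.34. The genotypes did not overlap, and the probe was not well above background in any WT heart while it was in all 4 of the others, so the WT level is only a bound. Against that bound (for each WT array the higher of its lowest signal among probes well above background and the probe's own signal) Fgf2 was at least 2.01-fold higher in the SIRT1 KO group. This bound holds only for the background-subtracted signal used here. With the normexp background the fitted log2 difference was 0.54, which lies below it. The probe met the filter only through the group in which it is high, so its limma adjusted p of 0.0127 and its fitted difference are not used as support. The other Fgf2 probe, A_52_P376768, stayed at background in every heart and gave no value.

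Fgf8, a ligand needed for outflow tract development, was higher on probe A_51_P101975, also printed in 10 spots. Its level was -3.98, -4.07, -3.95 and -4.02 in WT replicates 1 to 4, and -3.33, -3.06, -3.31 and -3.58 in the hearts labelled SIRT1 KO. All 4 WT hearts lay within a narrow band below every heart of the other genotype, although the WT spread (SD 0.05) was smaller than that of the other genotype (SD 0.21). The difference of 0.68 (SE 0.11, limma adjusted p = 0.00845) is a 1.61-fold higher signal, and it passed in each of the 8 fits without 1 heart. The other Fgf8 probe, A_52_P296244, differed by -0.13 (adjusted p = 0.714, 95% interval -0.54 to 0.28) and its genotypes overlapped, so the difference was seen on only 1 of the 2 probes. When the 2 probes were averaged the difference was 0.28 and did not pass.

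Fgf9 and Fgf16, related ligands which the epicardium and endocardium send to cardiomyocytes, had negative differences that did not pass the test, and Fgf20 of the same group was not above background in any heart. Fgf16 ranged from -4.28 to -3.87 in WT and from -5.07 to -4.28 in the hearts labelled SIRT1 KO, a difference of -0.59 (SE 0.16, limma adjusted p = 0.0804). It passed without replicate 3 of the hearts labelled SIRT1 KO (-0.71, adjusted p = 0.0329), with median scaling (-0.72, 0.0401), quantile normalization (-0.77, 0.0457) and no scaling (-0.81, 0.0160), while the difference was -0.10 (0.574) with the normexp background. Fgf9 differed by -0.27 (adjusted p = 0.177) and -0.22 (adjusted p = 0.154) on its 2 probes, whose genotypes overlapped, and the second passed with median scaling (-0.35, 0.0494) and both without scaling (-0.49 and -0.44, 0.0135 and 0.0160). The 6 epicardial markers (Wt1, Upk3b, Upk1b, Msln, Tbx18 and Aldh1a2) all had negative differences, from -0.68 to -0.07, none past the threshold, and their summed signal was 17.3 to 20.8 times the 75th percentile in WT and 11.2 to 16.9 times in the hearts labelled SIRT1 KO. In whole tissue, fewer cells of a type and less RNA per cell cannot be told apart, and the part of the epicardial markers in the Fgf9 and Fgf16 values was not tested. Fgf1, acidic FGF, differed by -0.02 (95% interval -0.22 to 0.18) and Fgf18 by -0.10 (-0.36 to 0.15). Over the 9 tested probes of FGF ligands Fgf8 was called, beside 4.88% of all probes, and so was Fgf2 with the limit given above; 2 were higher and 7 lower, a split that was the same under median, quantile and loess normalization and without scaling, while 5 were higher with the normexp background.

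**Figure D2:**
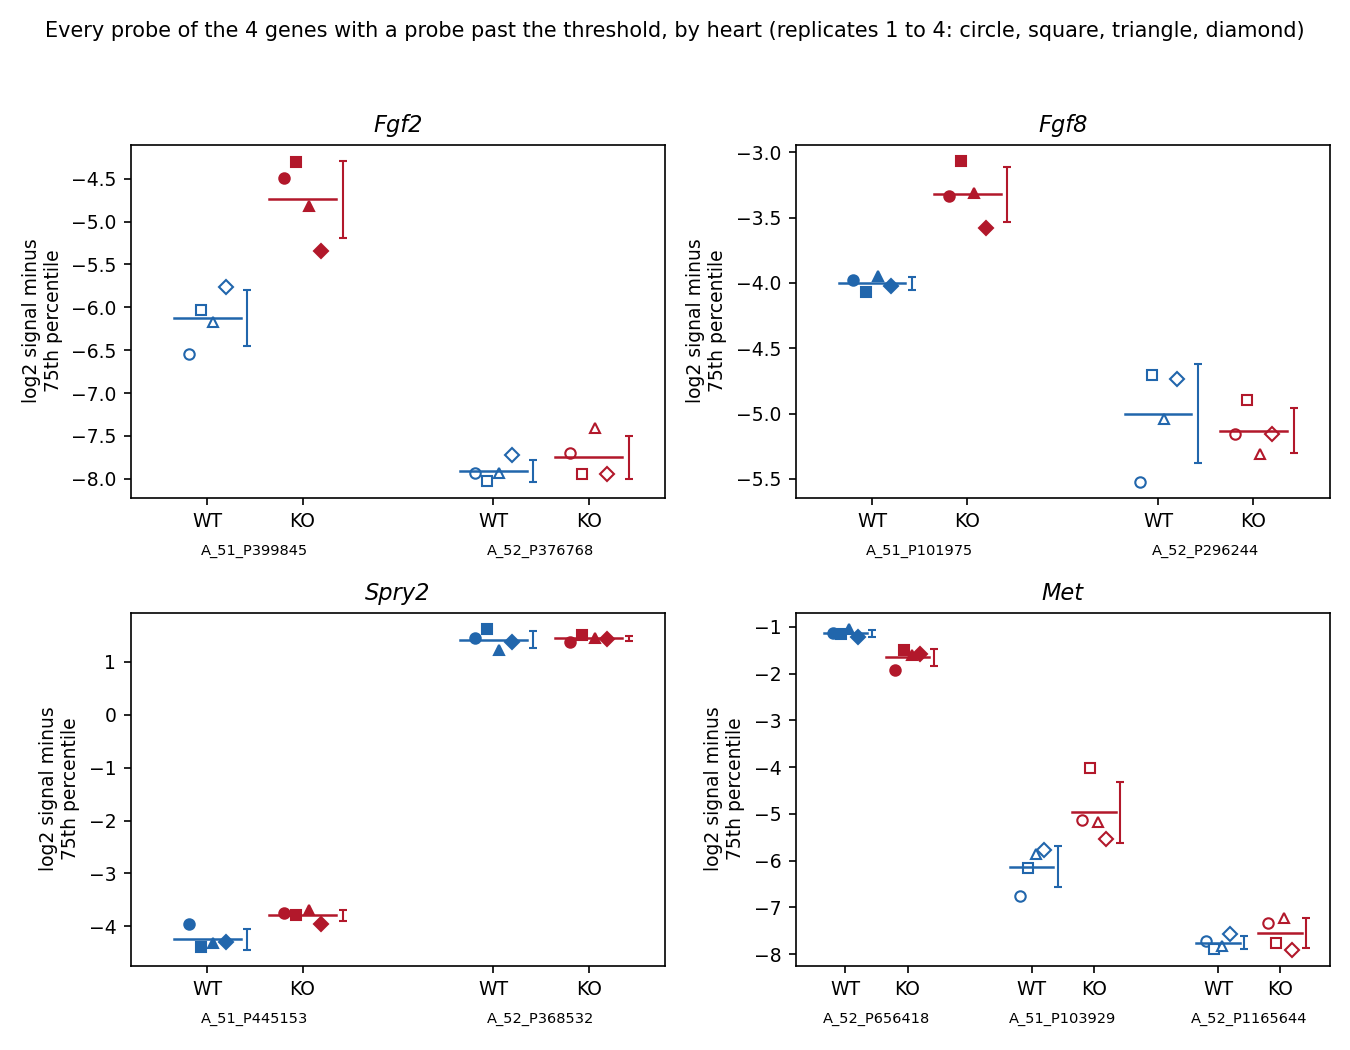
Log2 signal minus the array's 75th percentile (y axis) of every probe of Fgf2, Fgf8, Spry2 and Met in each heart, WT in blue and hearts labelled SIRT1 KO in red, with the mean as a line and the SD as a bar. Open symbols are groups in which not all 4 hearts were well above background. The genotypes separate on 1 probe each of Fgf2, Fgf8 and Spry2 and, in opposite directions, on 2 probes of Met.

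Among the tested probes the widest spread between hearts was that of Fgf12, the homologous factor that binds cardiac sodium channels. On its brightest probe, A_51_P126337, the WT hearts read -0.30, 0.59, -0.36 and -0.47 in replicates 1 to 4, and the hearts labelled SIRT1 KO read -2.80, 0.14, -1.74 and -1.90. Replicate 2 was the highest heart of its genotype in both groups, and the other 3 hearts labelled SIRT1 KO lay below every WT heart. The same order was seen on each of the other 3 Fgf12 probes: on A_52_P193161 replicate 2 read -0.45 in WT and -1.08 in the other genotype, against -1.53 to -1.51 and -4.32 to -2.65 in the remaining hearts. The fitted differences of the 4 probes were -1.44, -1.60, -0.96 and -1.40, with limma adjusted p-values of 0.170 to 0.275, so none passed. Without replicate 2 of the hearts labelled SIRT1 KO all 4 probes passed, with differences of -2.01, -2.19, -1.45 and -2.01 and adjusted p-values of 0.0175 to 0.0320. The fold at A_51_P126337 was then 0.248 of WT instead of 0.369. Without WT replicate 2 the differences were -1.20, -1.33, -0.71 and -1.08 and no probe passed. Leaving out that one heart of the SIRT1 KO group thus changed the call on all 4 probes. Of 55 tested marker genes 8 were also highest in replicate 2 of both genotypes, among them 3 of the 6 epicardial markers (Msln, Upk1b and Upk3b), 3 of the 7 fibroblast markers (Dcn, Lum and Postn) and 1 of the 8 cardiomyocyte markers. That one was Nppa, the atrial natriuretic peptide gene, at 8.19 against 7.58 to 7.84 in the remaining WT hearts and 8.28 against 6.94 to 7.68 in the other genotype. The part of these markers in the Fgf12 values was not tested.

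Fgf13, another homologous factor, did not share this pattern. Its brightest probe, A_52_P154877, ranged from 0.55 to 0.96 in WT and from 0.57 to 1.06 in the hearts labelled SIRT1 KO, a difference of 0.01 (95% interval -0.27 to 0.30, limma adjusted p = 0.960). The remaining 3 Fgf13 probes differed by 0.12, 0.12 and 0.17 with overlapping genotypes and none passed. Fgf11, a further homologous factor, differed by -0.05 (adjusted p = 0.913) and 0.34 (adjusted p = 0.313) on its 2 probes, and no Fgf14 probe was above background on enough arrays to test.

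**Figure D3:**
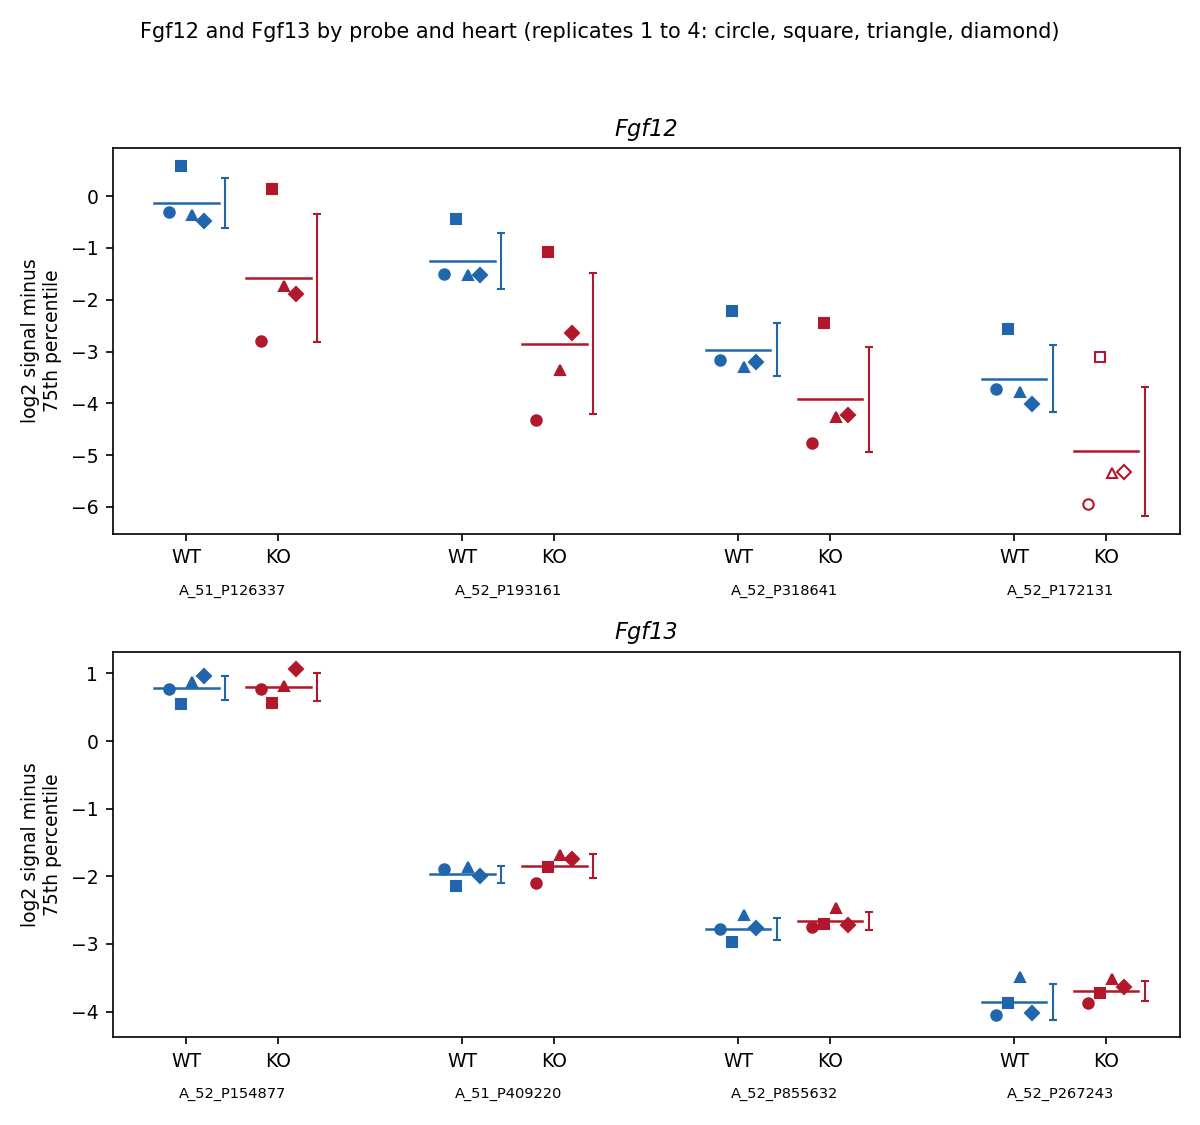
Log2 signal minus the array's 75th percentile (y axis) of the 4 probes of Fgf12 (top) and the 4 of Fgf13 (bottom) in each heart, symbols marking the replicate number, lines the mean and bars the SD; open symbols are groups in which not all 4 hearts were well above background. On each Fgf12 probe replicate 2 (square) is the highest heart of its genotype and the other 3 hearts labelled SIRT1 KO lie below all WT hearts, while the genotypes overlap on every Fgf13 probe.

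No FGF receptor probe passed the threshold in the fit as reported. The difference closest to it was that of Fgfr4, a receptor that partners with the co-receptor beta-Klotho in liver, whose WT hearts read -4.30, -4.00, -4.26 and -4.04 on A_51_P408100 and whose hearts labelled SIRT1 KO read -3.72, -3.23, -4.00 and -3.33. The genotypes only just did not overlap, WT replicate 2 and replicate 3 of the other genotype being equal to 2 decimals. The difference was 0.58 (SE 0.17, limma adjusted p = 0.0911) and it passed without that replicate 3 (0.72, adjusted p = 0.0256) and with the normexp background (0.43, adjusted p = 0.0118). Liver RNA was measured by 6 markers, of which 5 were tested and all were higher by 1.21 to 1.47 with none past the threshold (Ttr was above background in only 2 of 8 hearts), and their part in the Fgfr4 value was not tested. The liver sums of the 4 hearts labelled SIRT1 KO were 60.7, 7.75, 5.02 and 29.9 in the order of the Fgfr4 values above.

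Fgfr1, the main FGF receptor of mesenchyme, read -2.35, -2.42, -2.45 and -2.35 in WT and -2.32, -2.03, -1.95 and -2.10 in the hearts labelled SIRT1 KO on A_52_P668810. The hearts did not overlap, replicate 1 labelled SIRT1 KO lying next to the WT hearts, and the difference was 0.30 (SE 0.09, limma adjusted p = 0.109). The other 2 probes of Fgfr1 differed by 0.42 (adjusted p = 0.167) and by less than 0.01 in size (adjusted p = 0.993). With the normexp background A_52_P668810 (0.26, adjusted p = 0.0482) and A_52_P552062 (0.33, adjusted p = 0.0432) passed. Fgfr2 differed by 0.24 and 0.20 on its 2 tested probes, Fgfr3 by -0.03 and 0.17, and Fgfrl1, a receptor without a kinase domain, by 0.18. In all, 7 of 9 FGF receptor probes were higher, with a median of 0.20, against 6 or 7 of 9 under median, quantile and loess normalization, 4 of 9 without scaling and 9 of 9 with the normexp background.

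Among the inhibitors of receptor signalling, the 2 probes of Spry2, a Sprouty protein induced by ERK, gave different results. On A_51_P445153 the WT hearts read -3.96, -4.40, -4.32 and -4.30 and the hearts labelled SIRT1 KO read -3.75, -3.78, -3.69 and -3.95. The genotypes did not overlap, WT replicate 1 and replicate 4 of the other genotype differing only in the second decimal. The difference of 0.45 (SE 0.11, limma adjusted p = 0.0496) lay at the threshold. Of the 10 fits with other processing 3 passed: the normexp background, the filter on all arrays and the deposited series table. No fit with another scaling did. The probe also did not pass in 6 of the 8 fits that left out 1 heart: WT replicate 2 (0.40, adjusted p = 0.126), WT replicate 3 (0.43, 0.133), WT replicate 4 (0.43, 0.116), or replicates 1, 2 and 3 labelled SIRT1 KO (0.44, 0.45 and 0.42, adjusted p = 0.118, 0.116 and 0.0739). The other probe, A_52_P368532, ranged from 1.23 to 1.63 in WT and from 1.37 to 1.51 in the hearts labelled SIRT1 KO, a difference of 0.02 (95% interval -0.19 to 0.23).

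The rest of the inhibitors did not pass in the fit as reported. Spry4 differed by 0.75 (SE 0.24, limma adjusted p = 0.116), ranging from -5.71 to -4.82 in WT and from -4.98 to -4.00 in the hearts labelled SIRT1 KO, and it passed without replicate 3 labelled SIRT1 KO (0.93, adjusted p = 0.0468) and with the normexp background (0.46, adjusted p = 0.0208). Spry1 differed by -0.12 and Spred2 by -0.10. Spred1 differed by 0.01 (95% interval -0.14 to 0.16) on its brightest probe and by -0.36 (adjusted p = 0.166) on another, with overlapping genotypes on both. Without scaling that other Spred1 probe (-0.58, limma adjusted p = 0.0156) and Spry1 (-0.34, 0.0409) passed. Errfi1, which binds and inhibits ERBB receptors, differed by 0.08 (-0.35 to 0.51).

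Promoter sequence was at hand for 27 of the member genes, and is shown for Fgf2 and Spry2. Of the other genes called, the window of Met lies within its own transcribed span and Fgf8 is not among the 27. The stretches come from RefSeq on GRCm38.p6, run 5′ to 3′ on the gene's strand up to the first annotated base of the gene, and are Fgf2 at chr3:37348403-37348476, plus strand, 74 bases that overlap the non-coding gene Fgf2os, and Spry2 at chr14:105896820-105897069, minus strand, 250 bases:
Fgf2: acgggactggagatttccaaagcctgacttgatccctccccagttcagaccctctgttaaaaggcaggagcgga
Spry2: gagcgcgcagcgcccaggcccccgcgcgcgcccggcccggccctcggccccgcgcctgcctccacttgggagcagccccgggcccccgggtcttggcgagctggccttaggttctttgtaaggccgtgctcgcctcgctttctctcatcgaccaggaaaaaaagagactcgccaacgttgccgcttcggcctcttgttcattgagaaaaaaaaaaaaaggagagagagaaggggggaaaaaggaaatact
No letters are in capitals because neither stretch held any of the 6 strings searched on both strands. In 300-base windows around the gene starts, GGGCGG was held by 35.7% of all 32851 windows and by those of Fgf2 and Met, TGACTCA by 5.20% and by that of Met, and TATAAA (13.6%), CCAAT (37.4%), GTAAACA (3.65%) and CCGGAAGT (3.89%) by none of the windows of Fgf2, Spry2 and Met. The GC content was 54.1% in the Fgf2 stretch and 62.4% in the Spry2 stretch.

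None of the 7 PDGF ligand probes passed in the fit as reported or separated the genotypes. Pdgfa, the ligand of the PDGF alpha receptor, ranged from 5.17 to 5.29 in WT and from 5.23 to 5.42 in the hearts labelled SIRT1 KO (difference 0.09, 95% interval -0.07 to 0.25). Pdgfb, which recruits pericytes, differed by -0.04 and -0.20, Pdgfc by -0.33 and -0.38 and Pdgfd by -0.10, with limma adjusted p-values of 0.262 or more. Without scaling Pdgfc passed on A_51_P333839 (-0.60, limma adjusted p = 0.0471), as did Pdgfd (-0.32, 0.0465).

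The gene of the PDGF alpha receptor, a marker of cardiac fibroblasts and their precursors, was higher by a small and regular amount. Pdgfra read 0.37, 0.47, 0.41 and 0.40 in WT and 0.63, 0.69, 0.53 and 0.64 in the hearts labelled SIRT1 KO on A_51_P345649, which is printed in 10 spots. Every WT heart lay below every heart of the other genotype. The difference was 0.21 (SE 0.07, limma adjusted p = 0.127), a 15.4% higher signal that did not pass. The 7 fibroblast markers had differences from -0.12 to 0.08 with none past the threshold, and their summed signal overlapped between genotypes (293 to 342 in WT, 281 to 336 in the hearts labelled SIRT1 KO). Pdgfrb, the receptor of mural cells, differed by 0.20 (95% interval -0.05 to 0.46) with overlapping genotypes, and without scaling both receptors' differences were slightly below 0 (-0.01 and -0.02).

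In the neuregulin and EGF arm no ligand probe passed or separated the genotypes. Nrg1, the endocardial neuregulin, differed by -0.14 (95% interval -0.44 to 0.16) on its brightest probe, A_52_P158772, and by -0.40 (limma adjusted p = 0.359) on A_52_P369769. Egf differed by 0.03 (95% interval -0.29 to 0.36) and Hbegf, the heparin-binding EGF-like ligand, by 0.13 (-0.12 to 0.39).

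Erbb2, the co-receptor without a ligand of its own, was higher in every heart labelled SIRT1 KO on both of its probes. On A_52_P49250, printed in 10 spots, the WT hearts read 1.05, 0.98, 1.01 and 1.15 and the hearts labelled SIRT1 KO read 1.43, 1.30, 1.17 and 1.18. On A_51_P216179 the WT hearts read -4.21, -4.54, -4.10 and -4.18 and the others -4.06, -4.03, -3.98 and -3.93. The genotypes were separated on both, by a narrow gap, and the differences were 0.23 (SE 0.08, limma adjusted p = 0.168) and 0.26 (SE 0.10, adjusted p = 0.190), neither past the threshold. Without scaling they were 0.0055 and 0.036. Erbb4, the receptor that binds neuregulin in cardiomyocytes, differed by 0.06 (95% interval -0.33 to 0.46) on its single tested probe, and Egfr by 0.08, -0.01 and -0.09 on its 3 tested probes.

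None of the 4 Erbb3 probes was well above background in any heart, so the separation of the genotypes on A_51_P488243 (-6.13, -6.38, -6.43 and -6.37 in WT, and -7.57, -8.05, -6.88 and -8.13 in the hearts labelled SIRT1 KO) carries no level. Of the Schwann and neural markers, which include the neural crest factor Sox10, 3 of 6 were tested and all 3 were higher, Sox10 by 0.80 (limma adjusted p = 0.0199), with a summed signal of 0.559 to 0.693 in WT and 0.792 to 0.928 in the hearts labelled SIRT1 KO and Th not above background on any array. Their part in the Erbb2 values was not tested.

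**Figure D4:**
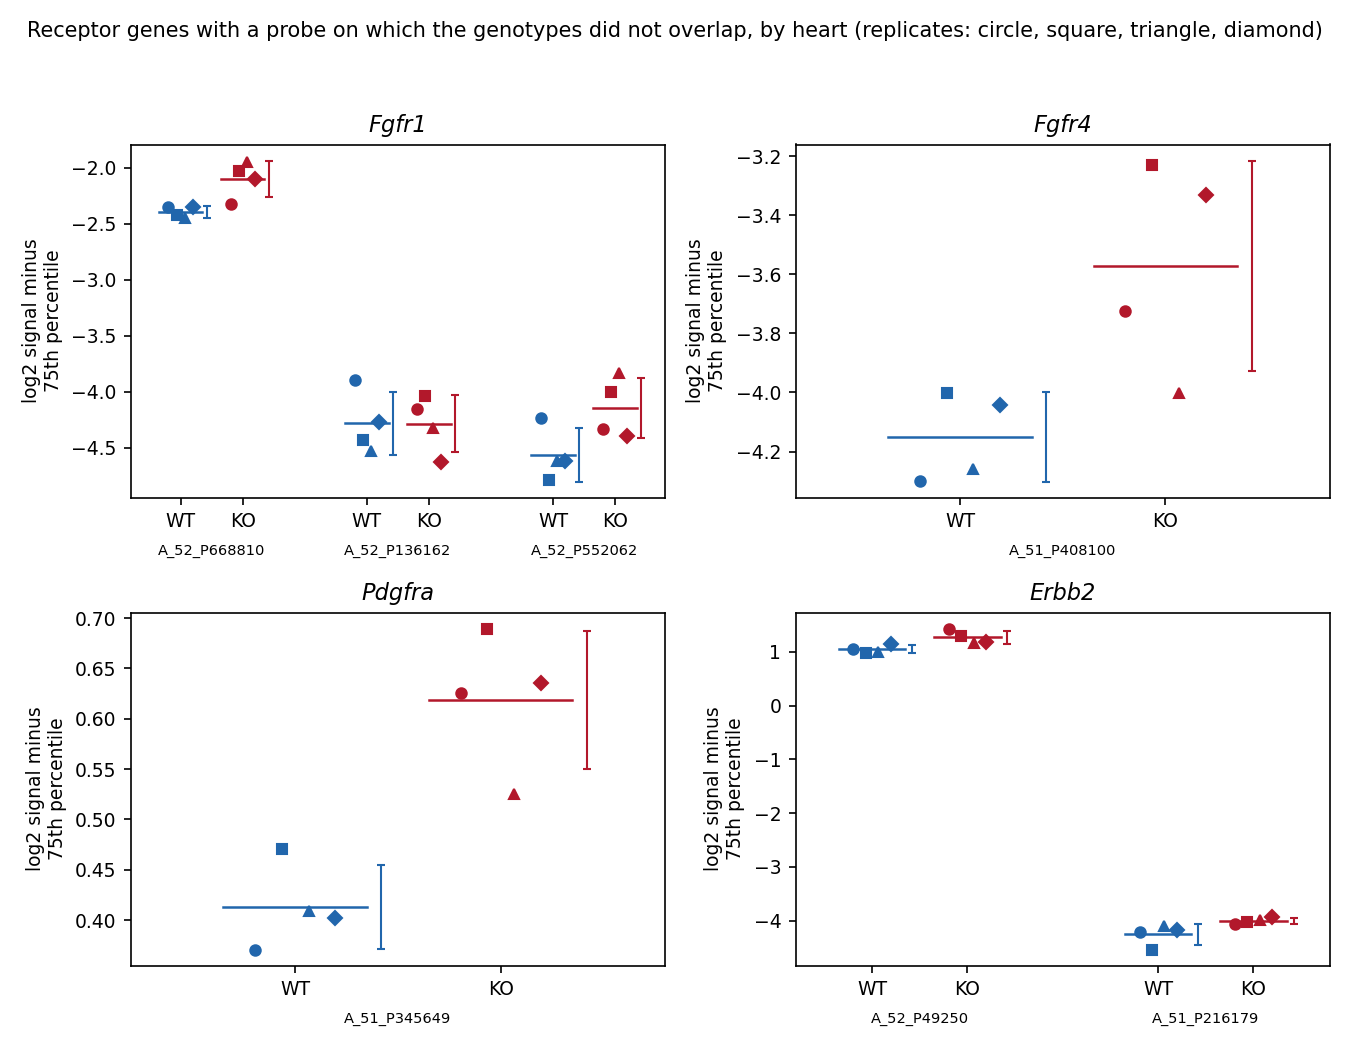
Log2 signal minus the array's 75th percentile (y axis) of Fgfr1, Fgfr4, Pdgfra and Erbb2 probes in each heart, WT in blue and hearts labelled SIRT1 KO in red, lines showing the mean and bars the SD. The genotypes do not overlap on 1 of the 3 Fgfr1 probes, on the Fgfr4 and Pdgfra probes shown and on both Erbb2 probes and none of these passed an adjusted p of 0.05.

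Met, the receptor of hepatocyte growth factor, was the only member called lower. On A_52_P656418 the WT hearts read -1.13, -1.15, -1.03 and -1.21 and the hearts labelled SIRT1 KO read -1.93, -1.49, -1.61 and -1.59. All WT hearts were above all others, and the difference was -0.52 (SE 0.10, limma adjusted p = 0.0237), so that the signal fell by 30.3%. The call was lost when WT replicate 1 (-0.52, adjusted p = 0.0596), 2 (-0.53, 0.0651) or 3 (-0.49, 0.0765) was left out. Of the 10 fits with other processing 8 kept it. It was lost without the filter on dim probes and with the methods' analysis of variance. A second Met probe, A_51_P103929, ran the opposite way: the WT hearts read -6.75, -6.16, -5.85 and -5.78, none above background, and the hearts labelled SIRT1 KO read -5.12, -4.03, -5.17 and -5.53, of which 3 were above background. Against its bound it was at least 1.73-fold higher and was not tested, being above background on too few arrays, and the third probe was not above background on any array. The ligand gene Hgf was above background in only 2 of 4 WT hearts and in none of the others on A_51_P484998 (-6.26 to -5.54 and -6.73 to -5.98) and was not tested.

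Across the separated probes, the exact two-sided permutation p of a single comparison was 0.0286, the smallest that 4 against 4 hearts can give, so that test cannot rank them. The brightest probe of each gene gave 3 called of 32 (Fgf8, Met and Fgf2, the last with the limit given above) beside 4.58% of 13594 named genes taken the same way, with 19 genes higher and 13 lower.

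**Figure D5:**
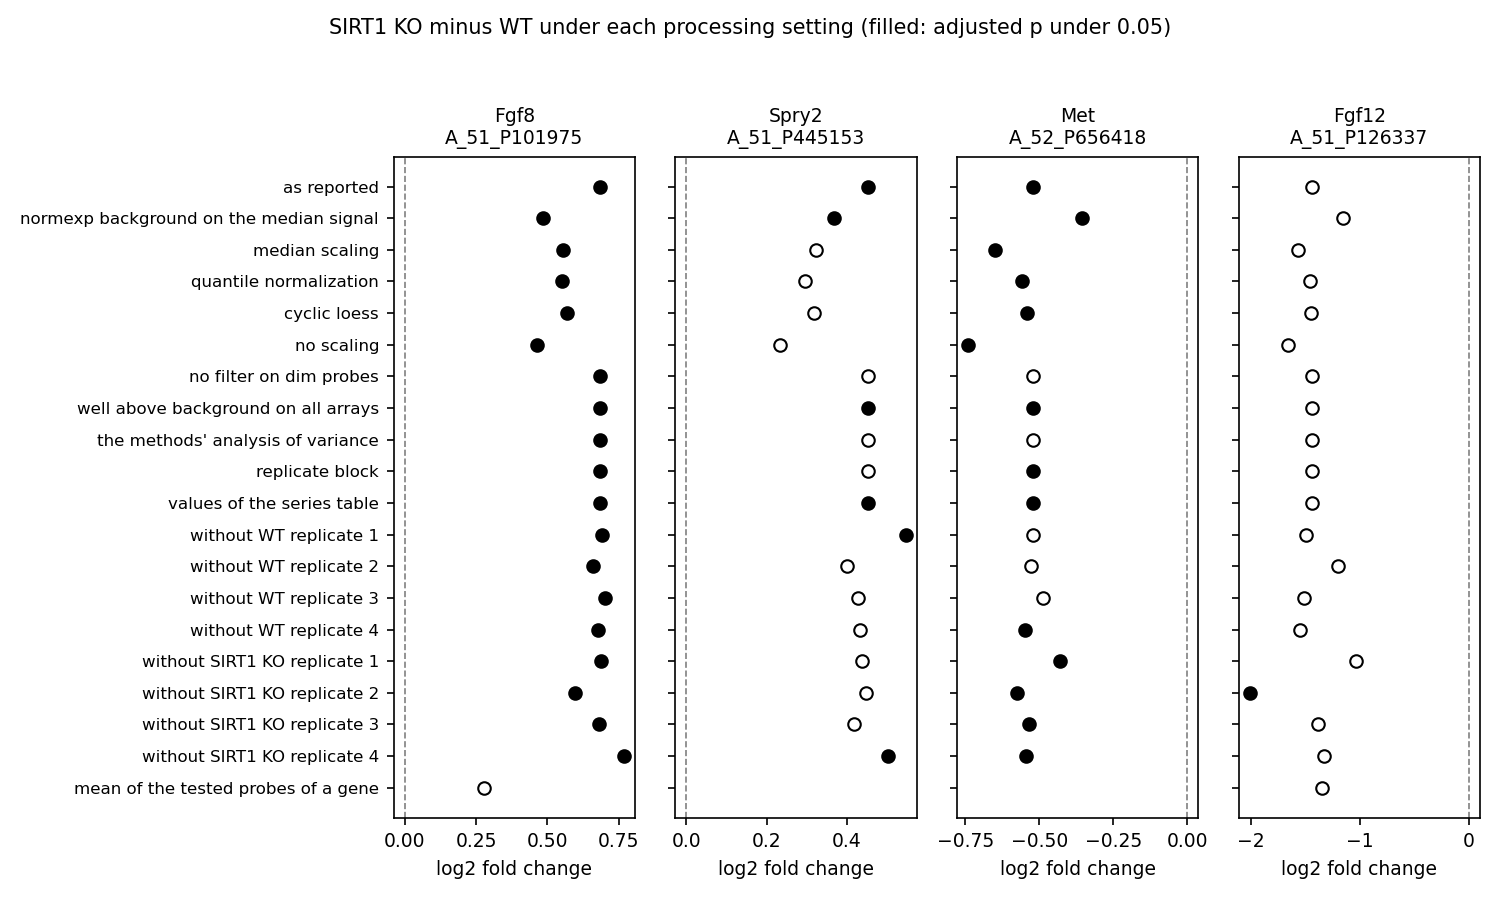
Log2 fold change (x axis, hearts labelled SIRT1 KO minus WT) of the called probes of Fgf8, Spry2 and Met and of the brightest Fgf12 probe under each processing setting (y axis); filled points passed an adjusted p of 0.05. No point changes sign, Spry2 passes in few settings, and Fgf12 passes only without replicate 2 labelled SIRT1 KO.

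Further along the same pathways, 93 genes were grouped into 6 lists, of which 87 had a probe and 68 were tested on their brightest probe. 3 of these 68 passed, all higher, a share of 4.41% beside the 4.58% above, and the median difference was 0.02. Frs3, an adaptor that links FGF receptors to ERK signalling, read -1.90, -1.99, -1.96 and -2.0 in WT and -1.44, -1.50, -1.46 and -1.33 in the hearts labelled SIRT1 KO, a difference of 0.53 (SE 0.07, limma adjusted p = 0.00389). Shc2, another receptor adaptor, read 0.21, 0.12, 0.17 and 0.12 in WT and 0.65, 0.66, 0.85 and 0.59 in the others, a difference of 0.53 (SE 0.08, adjusted p = 0.00609). Both separated the genotypes by more than the spread within either group. Rps6ka1, a kinase downstream of ERK, read -0.64, -0.87, -0.98 and -0.96 in WT and -0.52, -0.37, -0.39 and -0.53 in the hearts labelled SIRT1 KO. It differed by 0.41 (SE 0.09, limma adjusted p = 0.0425), with genotypes that did not overlap, and lost its call in 7 of the 8 fits without 1 heart, passing only without WT replicate 1 (0.49, adjusted p = 0.0209). Its adjusted p in the other 7 was 0.0594 to 0.121, and its other tested probe differed by -0.10. Of the 10 fits with other processing Rps6ka1 passed in 3, with differences of 0.19 to 0.41 over the 10.

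The rest of these lists held no call. Of the 12 tested feedback and target genes of ERK 3 were higher and 9 lower, Phlda1 by -0.23 (limma adjusted p = 0.183) and the phosphatase gene Dusp7 by -0.15 (adjusted p = 0.276) having the smallest p-values. In the list of other EGF family genes Btc, a ligand, differed by -0.31 (adjusted p = 0.301) and Rnf41, a ubiquitin ligase for ERBB3, by -0.11 (adjusted p = 0.400). The other tested Rnf41 probes differed by -0.07, 0.09 and 0.20, and the genotypes did not overlap on the last (limma adjusted p = 0.147). Among other FGF ligands and co-receptors Flrt2 differed by -0.33 (adjusted p = 0.250) and Flrt3 by -0.43 (adjusted p = 0.324). All 13 tested genes of other receptor tyrosine kinase systems had differences above 0, by 0.01 to 0.60 with a median of 0.15 and none past the threshold, and the smallest p-values were those of Gas6, the ligand of AXL, at 0.22 (adjusted p = 0.117) and Hpn, a protease that activates HGF, at 0.42 (adjusted p = 0.396). Hgfac, another HGF activator, had the largest difference (0.60), and both Hgfac (-1.46, -3.53, -3.72 and -2.64 in replicates 1 to 4 labelled SIRT1 KO) and Hpn (-1.41, -2.58, -2.59 and -2.26) were highest in replicates 1 and 4, the hearts with the highest liver sums (60.7 and 29.9), whose part in these values was not tested. The count of 13 higher was 8 of 13 under median scaling, 11 of 13 under quantile normalization, 13 of 13 under loess and 4 of 13 without scaling.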

How the data were processed

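Total RNA (500 ng) from 8 hearts was labelled with Cy3 and hybridised to Agilent whole-mouse-genome arrays. The authors extracted spot intensity with Agilent Feature Extraction (version 12 per the submitters' processing notes, 12.0.0.7 per the file headers). The study's methods name an earlier version. The deposited intensity is the background-subtracted processed signal, and the deposited series table holds the same signal. Spots that are controls or carry an outlier mark were dropped, the remaining spots of each probe were averaged, and log2 of the deposited intensity minus the array's 75th percentile over non-control probes was used, with no floor. Probes that cleared the background (the file's own flag) on 4 or more of 8 arrays were fitted together in limma 3.58.1 (R 4.3.3; lmFit and eBayes, genotype only), with Benjamini-Hochberg adjustment over all 25615 probes and a threshold of 0.05. The limma fit was tested on simulated data. Single probes also had an exact two-sided permutation test. Probes were named through their accessions in the RefSeq gene table (28223 of 41174 probes named), and no probe sequence was used here.

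The member genes, the pathway lists and the marker lists were chosen with earlier results of these data known. All members are named; a called or non-overlapping probe is given with its value in each heart, other members by their brightest probe (highest mean over 8 arrays), and of each pathway list the called genes and the 2 with the smallest p. Some genes of the pathway and marker lists are not reported here. Alternatives were another background model (normexp on the median signal with an offset of 50, chosen after seeing the data because the mean signal is not in the files used here), median, quantile, loess and no scaling, no filter or a filter on all arrays, the methods' one-factor analysis of variance, a replicate block, the series table, the mean of a gene's probes, and leaving out each heart. Precision is limited by the number of arrays, 4 for each genotype. Figures were drawn with matplotlib 3.10.9.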

Additional observations from a re-analysis of the deposited data

Results flagged for a closer look

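In each genotype, each of 112 groups of 4 hearts (a probe in a genotype) was screened for a heart far from the other 3 by the gap to its nearest neighbour over the whole range, and 8 stood out, where chance alone picks out about 5 in 100 such groups. WT replicate 2 was high on 3 of the 4 Fgf12 probes: 0.59 on A_51_P126337 (other WT hearts -0.47 to -0.30), -0.45 on A_52_P193161 (-1.53 to -1.51) and -2.21 on A_52_P318641 (-3.29 to -3.17). It was also high for Egfr on A_51_P392242, at -3.84 against -4.11 to -4.08. WT replicate 4 was high for Pdgfd on A_52_P264790 (-2.04 against -2.33 to -2.29). Among the hearts labelled SIRT1 KO, replicate 3 was high for Fgf13 on A_52_P855632 (-2.46 against -2.74 to -2.70) and for Nrg1 on A_52_P369761 (-3.67 against -7.67 to -7.52), where it was the only heart of the 8 above background, and replicate 1 was low for Nrg1 on A_52_P158772 (-4.61 against -4.51 to -4.49).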

How the results depend on the processing

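The 4 called member probes (3 higher, 1 lower) became 8 (7 higher, 1 lower) with the normexp background, 10 (2 higher, 8 lower) without scaling, 1 (Fgf8) with the methods' analysis of variance and 2 to 7 when 1 heart was left out, with 2 without WT replicate 2 or WT replicate 3 and 7 without SIRT1 KO replicate 2, which added the 4 Fgf12 probes. All probes called went from 1250 (1017 higher, 233 lower) to 2631 (2172, 459), 6352 (639, 5713) and 546 (435, 111) under the same 3 settings and to 657 to 1825 without 1 heart. The split of all calls was 680 higher and 1104 lower with median scaling, 672 and 379 with quantile normalization and 753 and 317 with loess, where 2 higher and 3 lower, 2 and 2, and 2 and 1 member probes were called. Scaling moved the median of all probes from 0.01 to -0.12 (median) and -0.21 (none), and the member median differed from that of all probes by at most 0.04 in any of these settings or with normexp. Called pathway genes went from 3 to 5 (normexp), 17 (no scaling, 15 lower) and 2 to 3 without 1 heart. The Sirt1 probe A_52_P358612 did not pass with median scaling (0.41), no scaling (0.32), no filter, the analysis of variance or the replicate block (0.54 each), and was 0.47 to 0.63 without 1 heart, passing in 2 of those 8 fits. Replicate numbers are shared by the genotypes, but the sample labels do not say what same-numbered hearts have in common. Same-numbered hearts deviated together by r = 0.20, 0.21, 0.06 and 0.14, and each WT heart correlated best with its own number. Whether the numbers mark a shared factor was not settled, and the fit as reported does not pair them. The replicate block called 6 member probes (adding Fgfr4, adjusted p = 0.0401, Fgf16, 0.0357, and the Fgf12 probe A_52_P172131, 0.0401, with 0.0576 to 0.0617 on the other 3, and losing Spry2), 1185 probes in all and 2 pathway genes.

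Differences near 0 changed sign. With normexp this was so for Fgf1 (0.038), Fgfr3 (0.019), Spry2 A_52_P368532 (-0.061), Pdgfb (0.048) and Nrg1 (0.21). With median scaling it was so for Fgf13 (-0.11), Spry2 (-0.11), Spred1 (-0.12), Errfi1 (-0.045), Pdgfa (-0.037), Egf (-0.095), Egfr (-0.048) and Erbb4 (-0.066). Without scaling it was so for Fgf13 (-0.21), Fgfrl1 (-0.040), Spry2 (-0.20), Spred1 (-0.21), Errfi1 (-0.14), Pdgfa (-0.13), Pdgfra (-0.014), Pdgfrb (-0.016), Egf (-0.19), Hbegf (-0.087), Egfr (-0.14) and Erbb4 (-0.16). Quantile normalization turned Egf (-0.010) and Erbb4 (-0.13), loess Erbb4 (-0.084), and the mean of a gene's probes Fgfr3 (0.070), Spred1 (-0.17) and Egfr (-0.0075). The cause was not tested beyond the shift of all probes. Without 1 heart the differences of Fgf1 (-0.069 to 0.042), Fgf13 (-0.072 to 0.093), Fgfr3 (-0.10 to 0.031), Spry2 (-0.043 to 0.090), Spred1 (-0.0043 to 0.042), Spred2 (-0.18 to 0.045), Errfi1 (-0.018 to 0.21), Pdgfb (-0.12 to 0.0088), Egf (-0.049 to 0.13), and Erbb4 (-0.071 to 0.22) spanned 0. Over the 34 member and 3 pathway probes followed through the alternatives, 582 values under the alternatives kept their direction and side of the threshold, 34 lost the call, 15 gained one and 49 changed sign. Slide as a block could not be fitted, since each slide holds 1 genotype, and normexp on the mean signal was not run. Dim probes limit the account: 22 of 76 member probes had too little signal over background to test.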
